A study of Mus musculus with 12 samples.

Results

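The genes described here are *Trp53*, which encodes the transcription factor p53, and 9 genes that p53 is known to activate: *Mdm2*, *Ccng1*, *Gadd45a*, *Bbc3*, *Trp53inp1*, *Phlda3*, *Sesn1*, *Sesn2* and *Zmat3*. They were chosen by name from textbook p53 biology, and all 10 of them had a row in every count table, out of 26608 genes listed. All 10 also passed the filter on low counts, which left 16035 genes to test. The question put to the data was whether these genes moved together with *Cdkn1a*, the p53 target that encodes the cell cycle inhibitor p21, whose level differed strongly between the groups.

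RNA came from CD4+ YFP(FOXP3)- T cells, sorted from spleen pooled with cervical and inguinal lymph nodes of single mice that were 14 weeks old, with 4 mice and 4 libraries in each of 3 groups. The control group, WT, was Foxp3Cre WT, and the DKO-moderate and DKO-severe groups were Foxp3Cre Tet2/3 flox/flox mice, which the study divided by how many leukocytes their spleen and lymph nodes held. All 3 groups carried Cre from the *Foxp3* gene, which is active in regulatory T (Treg) cells. In the DKO groups it deletes the floxed *Tet2* and *Tet3* alleles there, while WT has no floxed alleles. The sort removed cells with YFP, so in the DKO groups the sorted population could hold former Treg cells (ex-Treg cells) together with conventional CD4+ T cells in which the floxed alleles need not have been deleted, and these libraries do not separate the 2 kinds.

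p53 is made continuously and, in an unstressed cell, is bound by the ubiquitin ligase MDM2 and degraded. DNA damage and other stresses stop this degradation, so p53 activity is governed largely at the protein level and is commonly read from the mRNA of its targets. Among these targets, *Cdkn1a*, *Ccng1* and *Gadd45a* act on the cell cycle, *Bbc3*, *Trp53inp1* and *Phlda3* on cell death and survival, *Sesn1* and *Sesn2* on stress metabolism, and *Mdm2* closes a negative feedback loop.

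p53 binds DNA as a tetramer, on a response element made of 2 half-sites of 10 bases, each with a C and a G around 2 bases that are A or T. To show what such elements look like beside these genes, RefSeq promoter windows of 300 bases (250 before and 50 after a transcription start, build GRCm38.p6) were searched for the p53 half-site. The consensus is its own reverse complement, so 1 search covers both strands. Windows were available for 8 of the 10 genes, 11 windows in all. At least 1 half-site was found in 5 of the 11, against 8.36% of all 32851 windows, and these were the windows of *Trp53*, *Mdm2*, *Ccng1*, *Gadd45a* and 1 of the windows of *Sesn1*. The half-sites were GGACTTGCCC for *Trp53*, starting at base -75 from the start, GAACTTGCCT for *Mdm2* at -186, GGGCTAGCCC for *Gadd45a* at -40, and AAGCTTGTTT for *Sesn1* at -173. None of the 11 held a whole half-site with the core CATG, which 1.93% of all windows held. A run of 2 adjoining half-sites with at most 1 mismatch was found in 0.067% of all windows, 22 in number, among them 1 window of *Cdkn1a* and the window of *Ccng1*. The other window of *Cdkn1a*, at chr17:29093519-29093818, held no half-site. The 250 bases before the start are shown for those 2 genes and, for comparison, for *Phlda3*, the gene of the 10 that rose most. The 300-base window of *Phlda3* held no whole half-site. It ends in gaacatgt, which fits the start of a half-site with CATG, is cut by the window's edge and lies beyond the bases shown. Capitals mark p53 half-sites and the runs of 2 adjoining half-sites. The *Cdkn1a* stretch is chr17:29090729-29090978 on the plus strand, the *Ccng1* stretch is chr11:40755287-40755536 on the minus strand, and the *Phlda3* stretch is chr1:135765835-135766084 on the plus strand, each written 5′ to 3′.
Cdkn1a promoter: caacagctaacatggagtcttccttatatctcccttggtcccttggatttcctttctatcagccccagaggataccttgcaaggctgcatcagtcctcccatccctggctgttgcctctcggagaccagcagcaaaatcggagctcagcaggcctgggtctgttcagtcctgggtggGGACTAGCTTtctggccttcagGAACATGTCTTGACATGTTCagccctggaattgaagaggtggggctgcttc
Ccng1 promoter: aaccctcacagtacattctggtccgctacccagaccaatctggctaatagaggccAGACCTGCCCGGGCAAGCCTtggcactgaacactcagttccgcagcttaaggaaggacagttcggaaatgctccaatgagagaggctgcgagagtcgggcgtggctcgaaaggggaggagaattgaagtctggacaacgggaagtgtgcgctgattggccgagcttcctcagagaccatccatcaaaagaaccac
Phlda3 promoter: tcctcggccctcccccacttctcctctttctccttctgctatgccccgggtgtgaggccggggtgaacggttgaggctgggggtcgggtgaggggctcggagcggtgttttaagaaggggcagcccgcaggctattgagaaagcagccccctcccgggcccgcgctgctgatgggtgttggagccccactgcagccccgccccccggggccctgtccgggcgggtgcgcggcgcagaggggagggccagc
In *Cdkn1a* the run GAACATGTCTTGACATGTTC spans bases -51 to -32 from this start, and another half-site, GGACTAGCTT, begins at -73. With GAACATGTCT, the first half-site of the run, it makes a pair without mismatch and with a gap of at most 13 bases. Such a pair was found in 24 of all windows (0.0731%) and in none of the 11. In *Ccng1* the run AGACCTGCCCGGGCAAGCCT spans bases -195 to -176. These are matches of letters in a window and say nothing of binding in these cells.

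Read depth ranged from 29254260 to 42133536 reads on genes. The fewest reads for any of the 10 genes or *Cdkn1a* were the 23 of *Cdkn1a* in WT 1. *Cdkn1a* had 198 reads over the 4 WT libraries, 108 of them in WT 3. *Tet3* mRNA ranged from 167.4 to 210.4 CPM (reads of the gene per 1000000 reads of the library, scaled by TMM) in WT, from 90.3 to 184.7 in DKO-moderate and from 87.8 to 102.5 in DKO-severe, and *Tet2* overlapped between WT and the other groups. These counts cover whole genes and not the deleted exons, so they do not check the deletion. *Foxp3* was at most 3.1 CPM in any library, and 8 T cell genes summed to between 4225.8 and 5262.8 CPM. Markers of other cells differed between libraries. The summed level of 10 neutrophil genes was at most 2.1 CPM in WT and 8.58 CPM in DKO-moderate, while it reached 2249.3, 827.8, 23.9 and 10.3 CPM in DKO-severe 1 to 4. Of the WT libraries, WT 3 was highest in genes of B cells (7 genes, 207.5 CPM against at most 15.1 in the others), plasma cells (5 genes, 89.1 CPM), monocytes and macrophages (6 genes, 172.6 CPM) and erythroid cells (5 genes, 19.9 CPM). All 4 DKO-severe libraries were above WT 1, WT 2 and WT 4 in genes of B cells (68.0 to 374.3 CPM), plasma cells (51.2 to 197.8 CPM), monocytes and macrophages (58.2 to 347.8 CPM) and erythroid cells (11.3 to 46.9 CPM). Y-linked transcripts were present in 3 of the WT libraries, 2 of the DKO-moderate and 3 of the DKO-severe. For DKO-severe against WT, a call that was lost without WT 3, DKO-severe 1 and DKO-severe 2 is named below, for the 10 genes, *Cdkn1a* and the named genes of the wider pathway. In bulk RNA a change in the cells that make up a library cannot be told apart from a change of RNA per cell.

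*Cdkn1a* (chr17:29090976-29100727, GRCm38) set the pattern against which the other genes were read. With libraries 1 to 4 of each group in order here and below, it stood at 0.661, 1.16, 3.1 and 0.847 in the WT libraries, 3.24, 6.56, 5.24 and 5.09 in the DKO-moderate libraries and 20.9, 18.4, 41.5 and 19.4 CPM in the DKO-severe libraries. No library of one group overlapped another group, although WT 3 came close to DKO-moderate 1. In DKO-severe the level was 17.31-fold that of WT (log2 fold change 4.11, SE 0.49, adjusted p = 4.21e-05, edgeR quasi-likelihood F test), in DKO-moderate it was 3.48-fold that of WT (log2 1.80, SE 0.46, adjusted p = 0.0189), and DKO-severe was 4.98-fold above DKO-moderate (log2 2.32, SE 0.45, adjusted p = 0.00669). Without WT 3, DKO-severe 1 and DKO-severe 2 the log2 fold change of DKO-severe against WT was 5.10 (adjusted p = 8.82e-05). The rise in DKO-moderate lost its call without any 1 of WT 1, WT 2, WT 4 or DKO-moderate 2, with an adjusted p between 0.0532 and 0.0599.

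Beside this rise, the 10 genes split. In DKO-severe against WT, 4 of them rose (*Phlda3*, *Zmat3*, *Sesn2* and *Ccng1*), 2 fell (*Sesn1* and *Gadd45a*) and 4 did not pass the test (*Trp53*, *Mdm2*, *Bbc3* and *Trp53inp1*). The share that passed, 6 of 10, has to be read against a background in which 52.6% of all tested genes passed in this comparison (26.6% higher and 25.9% lower), and it lies near that background. The median log2 fold change of the 10 was 0.0, against -0.01 over all 16035 genes. In DKO-moderate against WT 3 of 10 passed (*Phlda3* and *Zmat3* higher, *Gadd45a* lower), where 17.1% of all genes did (12.3% higher, 4.74% lower). In DKO-severe against DKO-moderate 3 of 10 passed (*Phlda3* higher, *Sesn1* and *Gadd45a* lower), where 20.1% of all genes did (9.41% higher, 10.7% lower). Their medians in these 2 comparisons were 0.11 and 0.01, against 0.0 and -0.03 over all genes. The 3 comparisons share their libraries in pairs and are not independent.

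**Figure D1:**
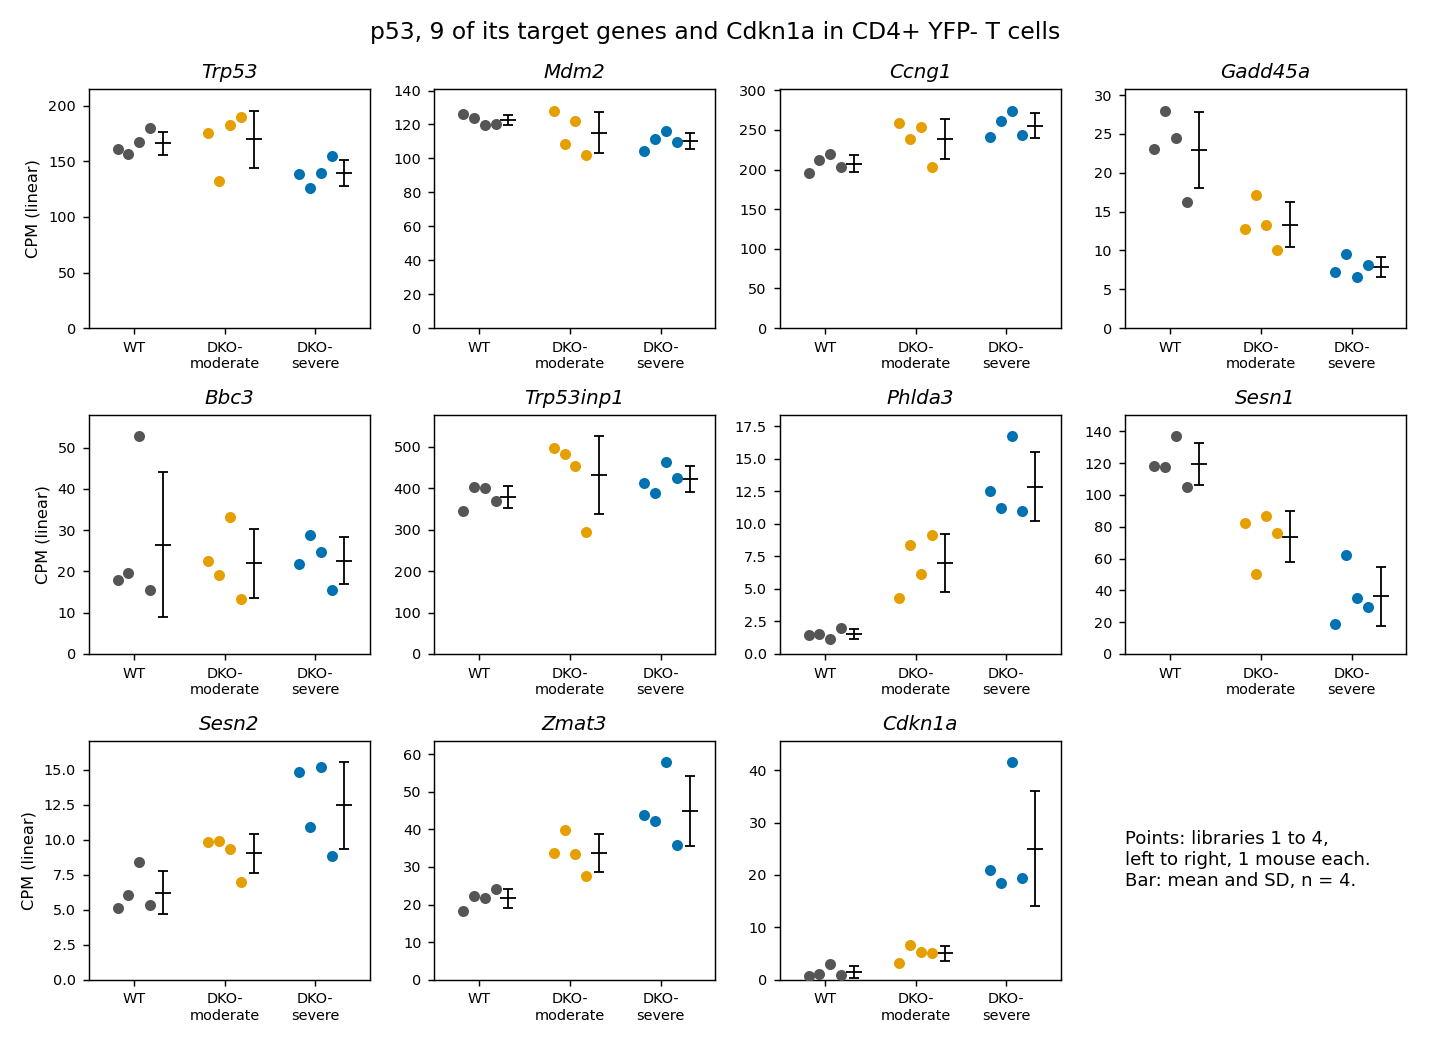
CPM of each gene (linear axis from 0) in the 4 libraries of WT, DKO-moderate and DKO-severe, with the mean and SD beside each group (n = 4). *Phlda3*, *Zmat3* and *Cdkn1a* step upward over the groups and *Gadd45a* and *Sesn1* step downward, while *Trp53* and *Mdm2* in DKO-severe lie just below WT and *Bbc3* is spread by WT 3 at 52.7 CPM.

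*Trp53* itself (chr11:69580359-69591873) did not pass the test in any comparison. Its mRNA was at 161.0, 156.7, 167.2 and 179.9 in the WT libraries, 175.3, 132.5, 182.4 and 190.0 in the DKO-moderate libraries and 138.6, 126.2, 139.2 and 154.5 CPM in the DKO-severe libraries. Every DKO-severe library lay below every WT library, the DKO-moderate libraries spanned both, and DKO-moderate 2 was the low one. The mean of 139.6 ± 11.6 CPM in DKO-severe (SD, n = 4) was 84.0% of the 166.2 ± 10.1 CPM in WT (log2 -0.25, SE 0.11, approximate 95% interval -0.47 to -0.04), and the adjusted p of 0.0706 missed the threshold. DKO-moderate differed from WT by a log2 of 0.03 (interval -0.18 to 0.25, adjusted p = 0.863). The *Trp53* result in DKO-severe moved with the libraries and the scaling. Without DKO-moderate 2, which enters through the shared estimate of spread, the adjusted p was 0.019. With library size alone the log2 fold change was -0.07 (adjusted p = 0.598), with terms for neutrophil and B cell genes in the fit it was -0.02 (adjusted p = 0.949), and without WT 3, DKO-severe 1 and DKO-severe 2 it was -0.17 (adjusted p = 0.394).

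*Mdm2* (chr10:117688875-117710758), both the main inhibitor of p53 and one of its classical targets, did not pass either. The level stood at 125.9, 123.7, 119.7 and 120.4 in the WT libraries, 128.2, 108.6, 122.3 and 102.0 in the DKO-moderate libraries and 104.2, 111.6, 116.0 and 109.5 CPM in the DKO-severe libraries. The 4 WT libraries were tightly grouped (122.4 ± 2.91 CPM, SD, n = 4) and all lay above the DKO-severe libraries (110.3 ± 4.88 CPM). The difference was small, with DKO-severe at 90.1% of WT (log2 -0.15, SE 0.08, interval -0.30 to 0.0, adjusted p = 0.123), and its direction depends on the scaling, since library size alone gave a log2 of 0.03. The ranges of DKO-severe and WT did not overlap for 8 of the 10 genes, *Trp53* and *Mdm2* among them, while 51.9% of all tested genes had ranges that did not overlap. The interval of *Mdm2* in DKO-severe reaches no higher than 0.0, so a rise of the size seen for *Ccng1* (log2 0.30) lies outside it under TMM scaling.

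Among targets that act on the cell cycle, *Ccng1* and *Gadd45a* moved in opposite directions. *Ccng1* (chr11:40748552-40755311) encodes cyclin G1, which recruits a phosphatase to MDM2. It stood at 196.2, 211.7, 220.2 and 202.7 in the WT libraries, 258.9, 238.6, 254.2 and 203.4 in the DKO-moderate libraries and 241.3, 261.7, 274.5 and 243.7 CPM in the DKO-severe libraries. All DKO-severe libraries were above all WT libraries, and of the DKO-moderate libraries DKO-moderate 4 stayed within the WT range. The rise in DKO-severe was small but passed the test (1.23-fold, log2 0.30, SE 0.09, adjusted p = 0.0128), and in DKO-moderate the log2 fold change was 0.20 (adjusted p = 0.132; 0.0269 without DKO-moderate 4).

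*Gadd45a* (chr6:67035096-67037457), a small stress protein linked to growth arrest and DNA repair, fell. WT libraries held 23.0, 28.0, 24.5 and 16.2 CPM, DKO-moderate libraries 12.8, 17.1, 13.3 and 10 CPM, and DKO-severe libraries 7.2, 9.5, 6.59 and 8.16 CPM. DKO-severe lay below both other groups without overlap, while DKO-moderate 2 overlapped WT 4. The level in DKO-severe was 34.3% of WT (log2 -1.54, SE 0.20, adjusted p = 7.62e-05) and 59.0% of DKO-moderate (log2 -0.76, SE 0.20, adjusted p = 0.0212), and DKO-moderate was at 58.2% of WT (log2 -0.78, SE 0.20, adjusted p = 0.0185). The difference between DKO-moderate and WT lost its call without WT 2 (adjusted p = 0.0644), and that between the DKO groups lost it without any 1 of DKO-severe 1, 3 or 4 (adjusted p 0.0573 to 0.0747).

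Of the 3 genes of cell death and survival, *Phlda3* rose most of all 10, and *Bbc3* and *Trp53inp1* did not pass. *Phlda3* (chr1:135766119-135769136) encodes a pleckstrin homology domain protein that competes with AKT for membrane lipids and so restrains AKT. It was at 1.44, 1.52, 1.12 and 2.0 in the WT libraries (39 to 73 reads), 4.28, 8.35, 6.11 and 9.14 in the DKO-moderate libraries (161 to 345 reads) and 12.5, 11.2, 16.7 and 11 CPM in the DKO-severe libraries (367 to 703 reads). As for *Cdkn1a*, the 3 groups formed 3 steps without overlap. DKO-severe was 8.44-fold above WT (log2 3.08, SE 0.28, adjusted p = 9.72e-06), DKO-moderate 4.58-fold above WT (log2 2.20, SE 0.27, adjusted p = 0.000423), and DKO-severe 1.84-fold above DKO-moderate (log2 0.88, SE 0.26, adjusted p = 0.0319). The rise over WT was as large without WT 3, DKO-severe 1 and DKO-severe 2 (log2 3.07, adjusted p = 0.000242). The step between the DKO groups was less secure, with an adjusted p of 0.0627 to 0.0874 when any 1 of DKO-moderate 1, DKO-moderate 3, DKO-severe 1 or DKO-severe 3 was left out. Of its log2 rise from WT to DKO-severe, *Phlda3* had made 2.20 by DKO-moderate and *Cdkn1a* 1.80 of 4.11; whether these proportions differ was not tested.

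*Bbc3* (chr7:16308393-16318205) encodes PUMA, a BH3-only protein that triggers apoptosis. Its values stood at 18, 19.5, 52.7 and 15.6 in the WT libraries, 22.4, 19.1, 33.2 and 13.2 in the DKO-moderate libraries and 21.8, 28.7, 24.6 and 15.4 CPM in the DKO-severe libraries. The groups overlapped throughout and WT 3 stood far above the rest, the library that was also highest among WT in genes of B cells, plasma cells and monocytes; the part of these cells in the *Bbc3* value was not tested. The log2 fold change of DKO-severe against WT was -0.22 (SE 0.39, interval -0.98 to 0.53, adjusted p = 0.646), and without WT 3 it was 0.36 (adjusted p = 0.307). The sign for *Bbc3* thus rests on WT 3, and a rise as large as that of *Ccng1* lies inside the interval.

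*Trp53inp1* (chr4:11156431-11174379) encodes a stress-induced nuclear protein that promotes p53 phosphorylation and autophagy. It was the most abundant of the 10 by CPM, at 344.8, 402.6, 399.6 and 370.2 in the WT libraries, 496.6, 482.8, 453.2 and 293.5 in the DKO-moderate libraries and 413.3, 387.9, 462.7 and 424.9 CPM in the DKO-severe libraries. In DKO-moderate 3 libraries exceeded every WT library and DKO-moderate 4 lay below all of them, and DKO-severe overlapped WT. Neither DKO group passed against WT (log2 0.15, SE 0.14, adjusted p = 0.376 in DKO-severe, and log2 0.19, SE 0.14, adjusted p = 0.391 in DKO-moderate). Without DKO-moderate 4 both passed, at a log2 of 0.19 (adjusted p = 0.0485) and 0.33 (adjusted p = 0.0195).

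The sestrins, which restrain the growth kinase mTORC1 and limit oxidative stress, moved in opposite directions. *Sesn1* (chr10:41809935-41908424) was at 118.4, 117.5, 136.8 and 105.3 in the WT libraries, 82.3, 50.2, 86.7 and 76.2 in the DKO-moderate libraries and 18.6, 62.1, 35.3 and 29.4 CPM in the DKO-severe libraries. Both DKO groups lay below WT without overlap, and DKO-severe 2 reached into the DKO-moderate range. The level in DKO-severe was 30.4% of WT (log2 -1.72, SE 0.30, adjusted p = 0.000497), and it was -1.81 on the log2 scale without WT 3, DKO-severe 1 and DKO-severe 2 (adjusted p = 0.000304). DKO-moderate was at 61.8% of WT (log2 -0.69, SE 0.29), which did not pass (adjusted p = 0.12; 0.0312 without DKO-severe 2). DKO-severe was at 49.2% of DKO-moderate (log2 -1.02, SE 0.29, adjusted p = 0.0293), a call lost without any 1 of DKO-moderate 1, 3 or 4 or DKO-severe 1, 3 or 4 (adjusted p 0.0552 to 0.093).

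*Sesn2* (chr4:132492032-132510501) was a gene of low level that rose. It stood at 5.11, 6.03, 8.42 and 5.33 in the WT libraries, 9.81, 9.93, 9.36 and 6.99 in the DKO-moderate libraries and 14.8, 10.9, 15.2 and 8.86 CPM in the DKO-severe libraries. DKO-severe lay above WT without overlap, by a narrow gap between WT 3 and DKO-severe 4. The rise was 2.0-fold (log2 1.0, SE 0.22, adjusted p = 0.0026). DKO-moderate was 1.45-fold WT (log2 0.54, SE 0.22, adjusted p = 0.116; 0.0458 without WT 3). The third sestrin, *Sesn3*, was not among the 10 genes and rose with *Sesn2*, from 120.3 ± 11.6 CPM in WT to 265.1 ± 38 CPM in DKO-severe (SD, n = 4; log2 1.14, SE 0.21, adjusted p = 0.000892).

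*Zmat3* (chr3:32334792-32366014) encodes an RNA-binding zinc finger protein that acts on splicing and mRNA stability downstream of p53. It stood at 18.3, 22.2, 21.8 and 24.2 in the WT libraries, 33.7, 39.8, 33.4 and 27.5 in the DKO-moderate libraries and 43.8, 42.3, 57.8 and 35.8 CPM in the DKO-severe libraries. Both DKO groups were above WT without overlap, and the DKO groups overlapped each other. DKO-severe was 2.08-fold WT (log2 1.05, SE 0.15, adjusted p = 0.00016) and DKO-moderate 1.55-fold WT (log2 0.64, SE 0.15, adjusted p = 0.0147; 0.0521 without WT 1). Between the DKO groups the log2 difference was 0.42 (SE 0.15, interval 0.12 to 0.72, adjusted p = 0.0708). This difference passed with DESeq2 (adjusted p = 0.0171), limma voom (0.0254), DESeq2's size factors in edgeR (0.0456), library size alone (0.0381) and the filter of 10 reads in every library of a condition (0.0468), and also without DKO-moderate 2 (0.041) or DKO-severe 4 (0.0392).

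**Figure D2:**
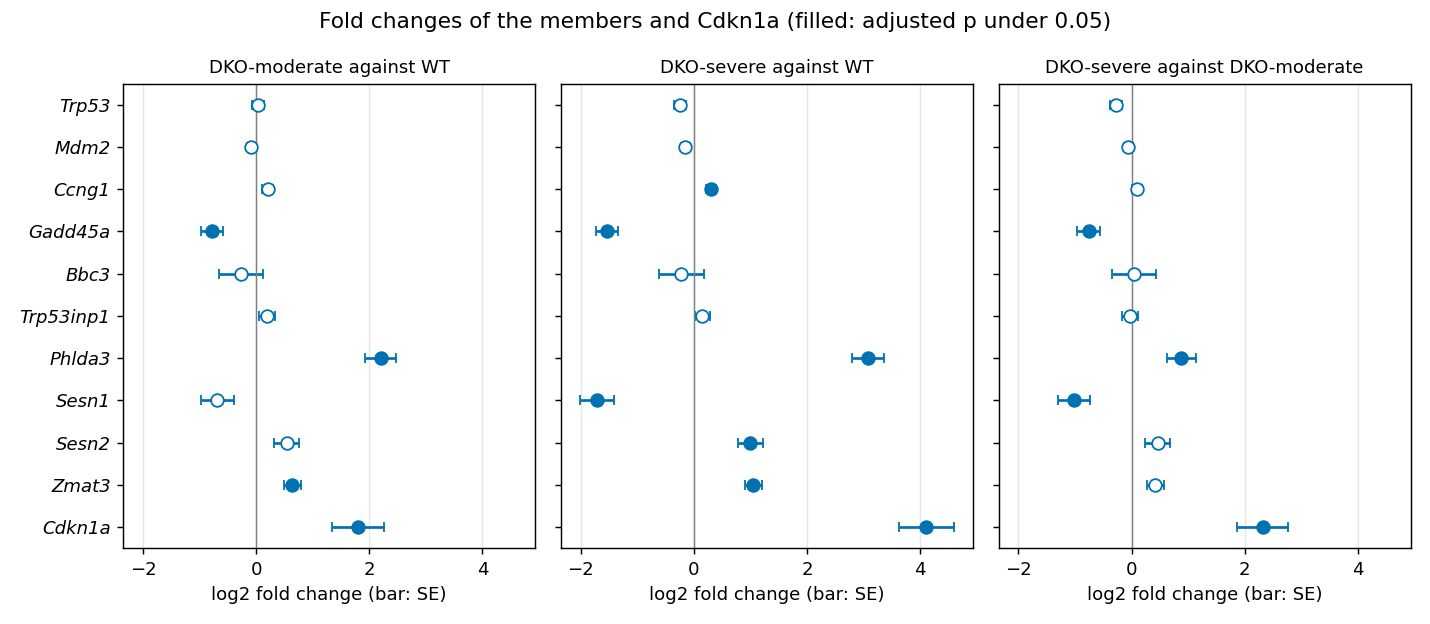
Log2 fold changes of the 10 genes and *Cdkn1a* in the 3 comparisons, with the SE as bars and filled points where the adjusted p of edgeR's test was under 0.05. In DKO-severe against WT the points run from -1.72 (*Sesn1*) to 3.08 (*Phlda3*) and 4.11 (*Cdkn1a*), with *Trp53* and *Mdm2* at -0.25 and -0.15.

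Per kilobase of exon, the genes that rose most started lowest. In WT the mean level was 59.1 CPM per kb for *Ccng1*, 58.6 for *Trp53inp1*, 41.1 for *Trp53*, 30.0 for *Sesn1*, 24.1 for *Mdm2*, 13 for *Gadd45a* and 12.4 CPM per kb for *Bbc3*. The other members were far lower, at 1.89 for *Zmat3*, 1.79 for *Sesn2* and 0.973 CPM per kb for *Phlda3*, with *Cdkn1a* at 0.406. In DKO-severe *Phlda3* reached 8.23 and *Cdkn1a* 7.05 CPM per kb, close to *Sesn1* at 9.13 and *Bbc3* at 10.7 and above *Gadd45a* at 4.46 CPM per kb. Exon lengths join all annotated isoforms of a gene, so these levels understate a gene whose short isoforms dominate.

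**Figure D3:**
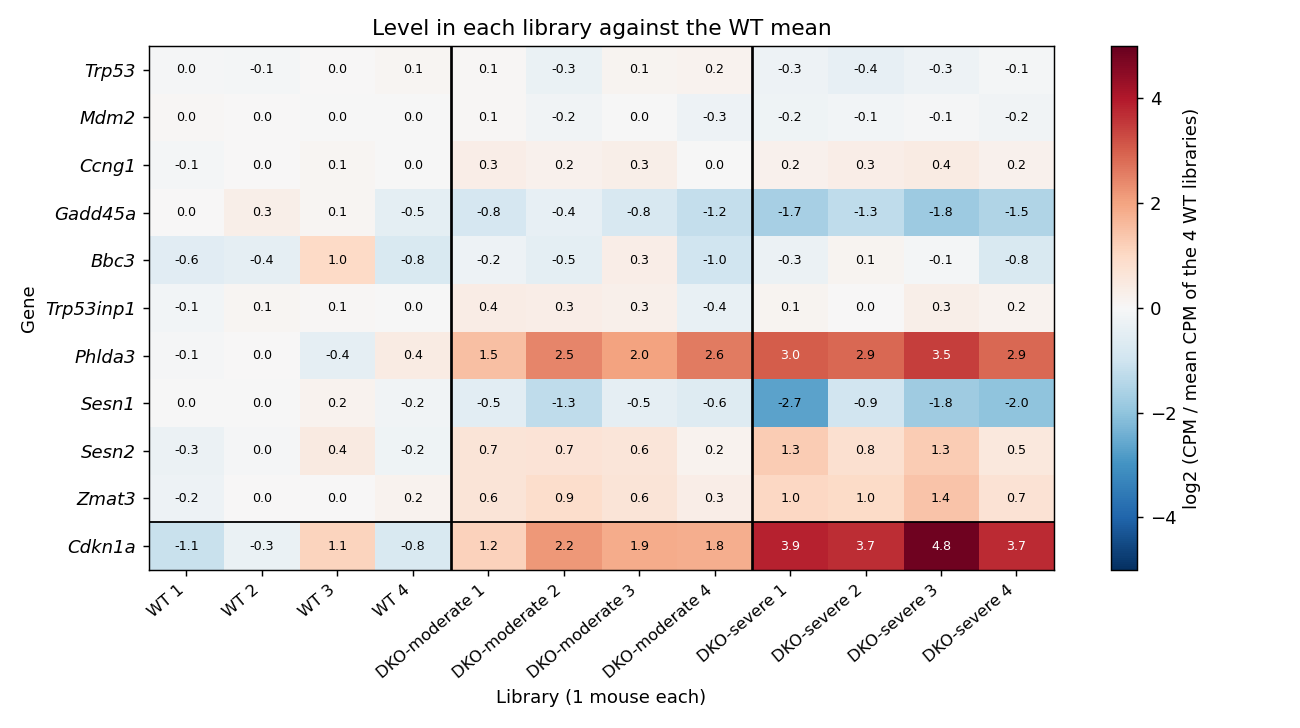
Log2 ratio of the CPM in each library (columns) to the mean CPM of the 4 WT libraries, for the 10 genes and *Cdkn1a* (rows). The rows of *Phlda3* and *Cdkn1a* are high throughout both DKO groups and highest in DKO-severe 3, those of *Sesn1* and *Gadd45a* are low, and the rows of *Trp53* and *Mdm2* stay near 0.

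Within DKO-severe, 1 library stood out for several of these genes. DKO-severe 3 was the highest of its group for *Cdkn1a* and for 6 of the 10 genes (*Mdm2*, *Ccng1*, *Trp53inp1*, *Sesn2*, *Zmat3* and *Phlda3*), while 21% of all tested genes were highest in this library. The same library was low in neutrophil genes (23.9 CPM) and lowest of its group in B cell genes (68.0 CPM), and it was the one DKO-severe library in which Y-linked transcripts were near 0. Y-linked transcripts also did not exceed 1 CPM in WT 2, DKO-moderate 2 and DKO-moderate 4. Whether their absence goes with the level of the 10 genes was not tested. In WT, WT 3 was highest for *Cdkn1a* and for *Ccng1*, *Bbc3*, *Sesn1* and *Sesn2*, and 26.5% of tested genes were highest there. In DKO-moderate, DKO-moderate 4 was the lowest of its group for 7 of the 10 genes and the highest for *Trp53* and *Phlda3*, while 32.3% of tested genes were highest there. With 4 libraries a group, this ordering is a description and carries no test. Without DKO-severe 3 the same comparison with WT still had 6 members past the threshold, and *Cdkn1a* had a log2 fold change of 3.78. The share of all genes passing in that fit is not given.

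By the root mean square difference of centred log2 CPM over the 12 libraries, the closest pair among the 10 was *Ccng1* and *Trp53inp1* (0.136). Next came *Trp53* and *Mdm2* (0.181), *Mdm2* and *Ccng1* (0.195), *Mdm2* and *Trp53inp1* (0.203), and *Sesn2* and *Zmat3* (0.204). Among 9996 genes of at least 5 CPM, *Nup43* (0.062), *Ip6k2* (0.084) and *Mrrf* (0.086) ran closest to *Trp53*, and *Lamc1* (0.441), *Lrrk1* (0.481) and *Fam129b* (0.484) ran closest to *Cdkn1a*. None of the 10 genes was among the 3 nearest to *Cdkn1a*, and *Phlda3* was the nearest of the 10 (0.872). The measure counts the size of a change as well as its pattern, which sets apart genes that changed less than *Cdkn1a*. Genes that vary little lie near each other by this measure, and all genes share the same libraries.

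The wider pathway was described with gene lists. Of 13 regulators of p53, 6 rose and 5 fell in DKO-severe against WT (median log2 fold change -0.01). The largest rises were in *Cdkn2a* (log2 3.11), whose locus encodes both the CDK inhibitor INK4A and the MDM2 antagonist ARF and whose counts do not separate the 2 products, *Chek1* (log2 2.78), a checkpoint kinase, and *Hipk2* (log2 1.52), a kinase that phosphorylates p53. *Cdkn2a* rose from 0.317 ± 0.11 CPM in WT to 1.39 ± 0.295 CPM in DKO-moderate and 2.76 ± 0.625 CPM in DKO-severe (SD, n = 4), with adjusted p of 0.00134 and 2.26e-05 against WT. The largest falls were in *Mdm4* (log2 -0.84), the MDM2-related inhibitor of p53, *Atm* (log2 -0.69), the kinase that signals DNA breaks, and *Rchy1* (log2 -0.62), a ubiquitin ligase for p53. *Mdm4* averaged 293.9 ± 33.8 CPM in WT and 164.6 ± 31.9 CPM in DKO-severe (SD, n = 4; adjusted p = 0.0141). The mRNAs of the 2 genes thus differed in that *Mdm4* passed and *Mdm2* did not, and the difference between them was not tested. Without WT 3, DKO-severe 1 and DKO-severe 2, 6 regulators rose and 3 fell, and *Mdm4* (log2 -0.78, adjusted p = 0.0847) and *Atm* (log2 -0.63, adjusted p = 0.0999) lost their calls. The share of all genes passing in that fit is not given.

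Further p53 targets moved both ways. Of 33 other targets in 3 lists, 19 rose (57.6%) and 10 fell (30.3%) in DKO-severe against WT, beside 26.6% and 25.9% of all tested genes, with a median log2 fold change of 0.49. In DKO-moderate against WT 12 rose (36.4%) and 2 fell (6.06%), beside 12.3% and 4.74% of all tested genes, with a median of 0.3. Against DKO-moderate, 9 rose in DKO-severe (27.3%) and 5 fell (15.2%), beside 9.41% and 10.7% of all tested genes, with a median of 0.16. Without WT 3, DKO-severe 1 and DKO-severe 2, 17 of the 33 rose and 9 fell in DKO-severe against WT. The share of all genes passing in that fit is not given, so these 2 counts are not read as a result about the targets.

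Of 8 targets that act in arrest, 4 rose and 4 fell. *Psrc1* (log2 3.74), a spindle protein, *E2f7* (log2 3.32), a repressive E2F factor, and *Gtse1* (log2 2.07), a G2 phase protein that restrains p53, rose most, and *Plk2* (log2 -2.01), *Ptp4a3* (log2 -1.60) and *Sfn* (log2 -1.57), the 14-3-3 sigma protein that holds cells in G2, fell most. *Psrc1*, *E2f7* and *Gtse1* are also expressed by dividing cells. *Sfn* averaged 34.8 ± 2.58 CPM in WT and 11.8 ± 3.27 CPM in DKO-severe (SD, n = 4; adjusted p = 0.000116), in contrast to *Cdkn1a*.

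Among 12 targets that act in cell death, 9 rose and 2 fell (median log2 0.7). *Perp* (log2 6.57), a membrane protein, *Pmaip1* (log2 4.00), the BH3-only protein NOXA, and *Dram1* (log2 2.14), a lysosomal protein of autophagy, rose most. *Dram1* stood at 4.09, 3.77, 0.976 and 1.05 CPM in DKO-severe 1 to 4 and at 1.18 CPM in WT 3, so DKO-severe and WT overlapped, and the 2 high libraries were those high in neutrophil genes. Without WT 3, DKO-severe 1 and DKO-severe 2 its log2 fold change was 1.53 (adjusted p = 0.0393), and the part of other cells in it was not tested. *Pmaip1* averaged 4.7 ± 2.61 CPM in WT, 22.5 ± 5.18 CPM in DKO-moderate and 75.2 ± 27.8 CPM in DKO-severe (SD, n = 4; adjusted p = 0.0022 and 1.59e-05 against WT), whereas the other BH3-only target, *Bbc3*, did not pass. *Perp* was at 0.149 ± 0.126 CPM in WT, from 21 reads over the 4 libraries, at 2.28 ± 0.391 CPM in DKO-moderate and at 14.7 ± 3.34 CPM in DKO-severe (SD, n = 4; adjusted p = 4.58e-06 for DKO-severe against WT). The death receptors *Fas* (log2 -0.77) and *Tnfrsf10b* (log2 -0.67) fell, the latter with a log2 of -0.46 and no call without those 3 libraries (adjusted p = 0.206). *Fas* averaged 28.9 ± 1.02 CPM in WT, 27.0 ± 0.736 CPM in DKO-moderate and 16.9 ± 4.06 CPM in DKO-severe (SD, n = 4; adjusted p = 0.00106 for DKO-severe against WT).

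In the list of repair and metabolism, 6 of 13 rose and 4 fell (median log2 -0.19). *Dcxr* (log2 2.27), a carbonyl reductase, *Polk* (log2 1.49), a translesion DNA polymerase, and *Fdxr* (log2 1.17), ferredoxin reductase, rose most. *Xpc* (log2 -1.08) and *Ddb2* (log2 -0.86), the damage sensors of nucleotide excision repair, fell most, followed by *Sco2* (log2 -0.84), an assembly factor of cytochrome oxidase. *Xpc* averaged 50.3 ± 2.44 CPM in WT and 23.8 ± 2.81 CPM in DKO-severe (SD, n = 4; adjusted p = 1.92e-05), and *Ddb2* 83.9 ± 9.91 and 46.3 ± 7.6 CPM (adjusted p = 0.000208).

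**Figure D4:**
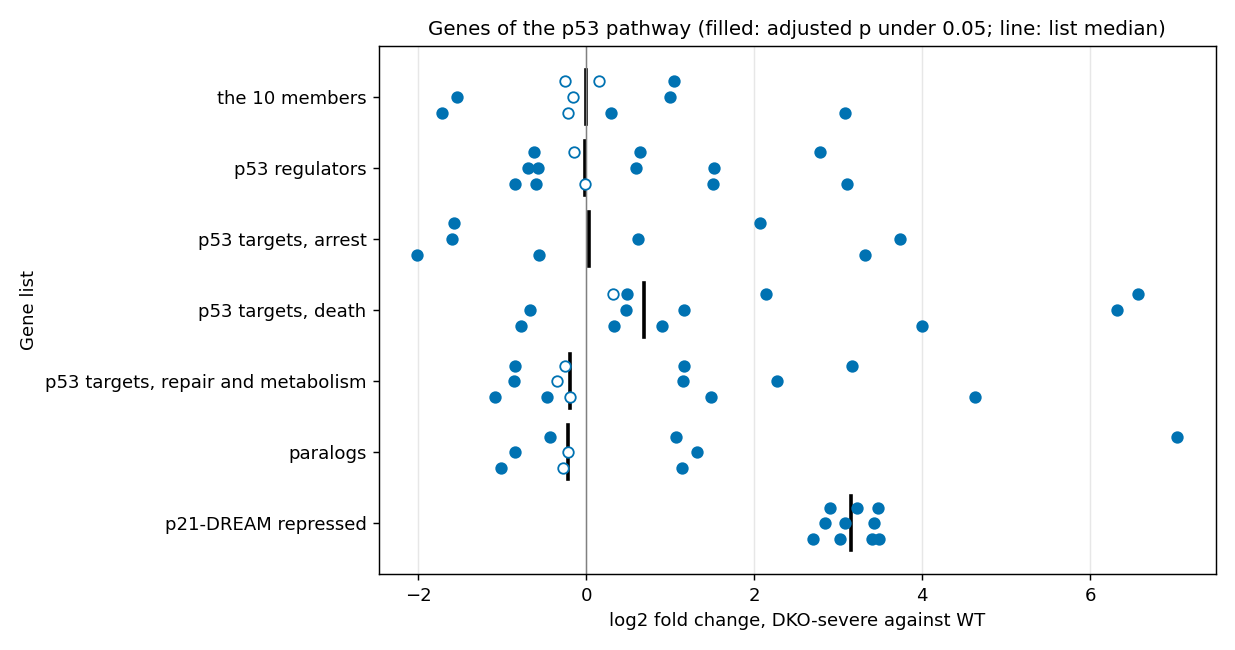
Log2 fold change of each tested gene in DKO-severe against WT (horizontal axis) by list (vertical axis), with filled points where the adjusted p was under 0.05 and a black line at the list's median. The 10 genes and the lists of p53 regulators and targets spread to both sides of 0, while all 10 genes of the p21-DREAM list lie between 2.7 and 3.49.

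Relatives of the 10 genes also moved both ways. Of 10 listed, 9 were tested, and 4 of these rose and 3 fell. *Trp73*, which encodes the p53 relative p73, had 7 reads over the 4 WT libraries, 15 over those of DKO-moderate and 1070 over those of DKO-severe, where it averaged 7.12 ± 3.0 CPM (SD, n = 4; log2 7.04 against WT, adjusted p = 3.85e-05; log2 6.07 against DKO-moderate, adjusted p = 0.00203). *Trp53inp2* (log2 1.32) rose, while *Phlda1* (log2 -1.01) and *Ccng2* (log2 -0.43) fell, beside log2 fold changes of 0.15, 3.08 and 0.30 for *Trp53inp1*, *Phlda3* and *Ccng1*; these differences between relatives were not tested. *Trp53inp2* was at 9.41, 7.61, 4.36 and 4.02 CPM in DKO-severe 1 to 4, again highest in the libraries high in neutrophil genes, and at 3.45 and 3.59 CPM in WT 2 and WT 3, the highest of WT. Without WT 3, DKO-severe 1 and DKO-severe 2 neither *Trp53inp2* (log2 0.94, adjusted p = 0.0907) nor *Ccng2* (log2 -0.38, adjusted p = 0.0837) passed, and the part of other cells was not tested. The third member of the p53 family, *Trp63*, was not tested, with at most 4 reads in a group.

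p21 is known to shift a set of cell cycle genes into repression by the DREAM complex, and 10 of these genes were listed. Whether that repression acted in these cells was not tested. All 10 such genes rose in DKO-severe against WT (median log2 3.15, range 2.7 to 3.49), all 10 in DKO-moderate against WT (median 1.65) and all 10 in DKO-severe against DKO-moderate (median 1.46; 9 of 10 without WT 3, DKO-severe 1 and DKO-severe 2). Of these, *Bub1* (log2 3.49), *Cdk1* (log2 3.47) and *Cdc25c* (log2 3.43) rose most in DKO-severe. Their summed level was 81.2 to 148.9 CPM in WT, 232.3 to 396.5 CPM in DKO-moderate and 508.2 to 1333.8 CPM in DKO-severe, without overlap. These genes also mark dividing cells in general, and the summed level of 7 naive T cell genes went the other way, from 4399.2 to 5101.0 CPM in WT to 1655.2 to 2230.6 CPM in DKO-severe. What share of the changes in the 10 genes goes with this change in the cells was not tested. Counts for all of these lists stand beside the backgrounds given above. Of all tested genes, 52.6% passed in DKO-severe against WT, 17.1% in DKO-moderate against WT and 20.1% in DKO-severe against DKO-moderate. No such share is given for the fit without WT 3, DKO-severe 1 and DKO-severe 2.

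Markers of other cells moved with the DKO-severe group, and the changes of the 10 genes and *Cdkn1a* were therefore set beside fits that leave out libraries or hold marker terms. All 10 neutrophil genes rose in DKO-severe against WT. Without WT 3, DKO-severe 1 and DKO-severe 2 the same 6 of the 10 genes passed against WT (4 higher and 2 lower), although *Ccng1* only just did (log2 0.35, adjusted p = 0.0498). The share of all genes passing without these libraries is not given, so this count is not read as a result about the 10 genes either. Markers of other cells still differed without these libraries. Higher in DKO-severe were 5 of 5 plasma cell, 6 of 6 monocyte and macrophage, 7 of 9 neutrophil, 3 of 5 erythroid and 2 of 6 B cell genes. Leaving these libraries out thus does not separate the calls from other cells. In a fit with terms for the mean level of the neutrophil and B cell genes, 3 passed, *Phlda3*, *Zmat3* and *Gadd45a*, while *Ccng1* (adjusted p = 0.086), *Sesn1* (0.0689) and *Sesn2* (0.132) did not, with log2 fold changes of 0.41, -1.51 and 0.83. The summed neutrophil genes moved with the group (10.3 to 2249.3 CPM in DKO-severe, at most 2.1 in WT). A fit with these terms therefore cannot tell other cells from the group. The share of all genes passing with the terms is not given, so the count of 3 is not read as a result about the 10 genes. In that fit *Cdkn1a* remained higher than in WT (log2 4.52, adjusted p = 0.00123), while its difference from DKO-moderate lost its call (log2 2.26, adjusted p = 0.0625).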

How the data were processed

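RNA sequencing was performed on 12 libraries of sorted CD4+ YFP(FOXP3)- T cells, 4 mice in each of 3 groups taken from the labels. The authors prepared directional libraries, sequenced paired ends, aligned the reads to mm10 with STAR 2.7.11 and deposited raw counts per gene made with htseq-count; the gene annotation is not given in the sources used here. Reads on genes ranged from 29254260 to 42133536, and 18.53% to 23.73% of a library's records were not on a gene and were left out. Libraries of a group differed by more than sampling noise (chi-square per degree of freedom at least 22.9).

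A gene was tested if the 4 libraries of some condition held 10 or more of its reads in total (16035 genes). All 12 libraries were fitted with edgeR 4.0.16 (R 4.3.3; TMM scaling; quasi-likelihood F test). P-values were adjusted over the 16035 genes by the Benjamini-Hochberg method, and 0.05 was the threshold. CPM are TMM-scaled. The SE is the log2 fold change divided by the square root of F, and intervals of 95% are approximate. Tables and plots used Python 3.11.15, pandas 2.3.3 and matplotlib 3.10.9. The fits were tested on simulated data. Coordinates and exon lengths are from GENCODE for GRCm38, and promoter windows from RefSeq, GRCm38.p6.

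The genes, the lists and the alternatives were chosen with earlier results of these data known. Named from each list were up to 3 largest rises and 3 largest falls in DKO-severe against WT among genes past the threshold that averaged 1 CPM or more in the higher of the 2 groups. Alternatives were DESeq2 1.42.0, limma 3.58.1 voom with quality weights, other scalings and filters, a fit of 2 groups, the replicate number as a block, terms for neutrophil and B cell genes, stricter thresholds and leaving out each library. A fit without 3 libraries was added after their marker levels had been seen. Of the 9 T cell genes listed, 8 were found in the tables.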

Additional observations from a re-analysis of the deposited data

Results flagged for a closer look

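A library that stood apart from the 3 others of its group was found for 2 of the 33 combinations of gene and group examined (10 genes and *Cdkn1a* in 3 groups), where chance gives about 1 in 20. *Bbc3* was at 52.7 CPM in WT 3, and the gap to the next WT library was 0.895 of the range of the group. *Cdkn1a* was at 41.5 CPM in DKO-severe 3, with a gap of 0.889 of the range. Without WT 3 the log2 fold change of *Bbc3* in DKO-severe against WT was 0.36 (adjusted p = 0.307), and without DKO-severe 3 that of *Cdkn1a* was 3.78 (adjusted p = 0.000134). Why these libraries stood apart was not tested.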

How the results depend on the processing

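Of 363 fold changes recomputed under alternatives other than leaving out 1 library, for the 10 genes and *Cdkn1a* in 3 comparisons, 316 kept their direction and their side of the threshold, 12 lost a call, 15 gained one and 20 changed sign; leaving out the libraries one by one gave 357, 19, 9 and 11 of 396. In DKO-severe against WT, 6 of the 10 genes passed, 3 with the neutrophil and B cell terms, and 6 to 7 with 1 library left out. In DKO-moderate against WT, 3 passed, 5 with limma voom, 1 at an adjusted p under 0.01, 1 when the log2 fold change also had to reach 1 in size, and 2 to 5 with 1 library left out (2 without WT 1 or WT 2, 5 without DKO-moderate 4). In DKO-severe against DKO-moderate, 3 passed, 5 with limma voom, 1 with only these 2 groups in the fit, 0 with the terms, 0 under 0.01, 1 at the fold threshold, 1 without WT 3, DKO-severe 1 and DKO-severe 2 (chosen after seeing the data), and 0 to 5 with 1 library left out (0 without DKO-severe 1 or 3, 1 without DKO-moderate 1 or 3, 5 without DKO-moderate 2). The other counts lay within 1.5 times. The share of all genes passing is given for none of the alternatives, so their counts have no background beside them. Fold changes near 0 changed sign. For *Mdm2*, DKO-severe differed from WT by a log2 of 0.03 with library size alone and 0.01 with the terms, and against DKO-moderate the value was 0.01 with DESeq2 and its size factors, 0.05 with library size alone and 0.07 with the terms. For *Trp53inp1* in DKO-severe against DKO-moderate it was 0.04 with DESeq2, its size factors and the 3 libraries left out, 0.08 with library size alone, 0.02 when each library of some condition had to hold 10 reads, 0.1 with the terms, and -0.14 to 0.04 with 1 library left out. For *Bbc3* it was 0.07 with voom and 0.18 without the 3 libraries in DKO-severe against WT (-0.41 to 0.36 with 1 left out), 0.29, 0.31 and, with the terms, 0.1 in DKO-moderate against WT (-0.54 to 0.31), and -0.22, -0.13 and, with the terms, -0.23 in DKO-severe against DKO-moderate (-0.1 to 0.31). For *Trp53* in DKO-moderate against WT it was -0.03 to 0.14 with 1 library left out. The causes were not tested. Scaling by library size alone moved the median of all genes by 0.18, 0.08 and 0.11 (DKO-severe and DKO-moderate against WT, and DKO-severe against DKO-moderate), and 66.5%, 81.2% and 64.9% of calls were then higher, against 50.7%, 72.2% and 46.9%; with DESeq2's size factors the shares were 57.8%, 71.7% and 59.6%. Libraries with the same number did not deviate together (residual correlation -0.272 to 0.208), so the numbers were not taken as pairs; with the replicate number as a block 7, 3 and 3 of the genes passed, and *Trp53* in DKO-severe against WT had an adjusted p of 0.0284. *Trp53* also passed there with voom (0.0368) and with only these 2 groups in the fit (0.0471).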
